A study of Mus musculus with 18 samples.

Results

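The SATS and the SP knockdown, 2 ways of lowering *Stag1* in mouse embryonic stem cells (mESCs), were set against each other. SATS was a mixture of enzymatically derived siRNAs to the 5′ UTR of *Stag1* transcripts that start at the SATS promoter, and SP was an equimolar commercial siRNA pool to *Stag1*. The comparison took the SATS and SP libraries of replicate sets 2 and 3, which are 4 of the 18 samples of the series and 4 of the 16 libraries in the deposited table of serum-grown cells, and it was paired by replicate set. All of these cells were male E14 mESCs grown in serum (FCS) with LIF on gelatin, transfected for 24 h, and their RNA was depleted of rRNA before sequencing. The study asked what the cohesin subunit STAG1 and its many isoforms do in mESCs, and it used siRNA to the whole gene (SP), to its 3′ end (3p), to its 5′ end (5p) and to the SATS 5′ UTR beside scrambled (scr) and luciferase controls. The scr siRNA stood in both sets, 1 untreated library stood in set 2, and the luciferase siRNA, which is enzymatically derived like SATS, stood in set 3. SATS and SP differ in the part of *Stag1* they target, in the depth of the knockdown and in how the siRNA was made, and these cannot be told apart here. The cells are 1 line, and nothing in the labels says that the sets came from separate cultures, so the p-values below measure the spread between these libraries only.

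Cohesin is a ring of SMC1A, SMC3 and RAD21 that holds sister chromatids together and folds chromosomes into loops, and each ring binds 1 of the STAG proteins, STAG1 or STAG2, which bring it to chromatin. mESCs keep the naive pluripotent state through factors such as NANOG, ESRRB, KLF4 and TBX3, and a serum culture holds a mixture of cells nearer to and farther from that state. An siRNA guides Argonaute to its target by full pairing, and its bases 2 to 8, the seed, can also pair with the 3′ UTRs of other mRNAs and lower them.

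The values are reads per gene divided by 1 size factor per library, here called normalised values, and a difference is given as log2(value + 1) in SATS minus SP, averaged over both sets, with its standard error. A gene was called at an adjusted p under 0.05 (limma, with the replicate set as a block and Benjamini-Hochberg adjustment over 16490 genes). The 4 libraries held 32960532 to 45660840 reads on genes, and the pre-ribosomal RNA *Rn45s* took 14.7% to 23.5% of them, with the lowest and the highest share both in SATS. In bulk RNA, fewer cells of a type and less RNA per cell cannot be told apart. The per-gene values do not split *Stag1* by isoform.

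*Stag1*, the target of both siRNAs, was measured first. Its normalised value was 406 and 371 in the SP libraries of sets 2 and 3, 947 and 1051 in the SATS libraries and 1876 and 2113 in the scr libraries. The 3 groups did not overlap, and the SATS libraries lay between SP and scr. *Stag1* was 2.57-fold higher in SATS than in SP, a log2 difference of 1.36 ± 0.10 (SE, n = 2 per group, adjusted p = 6.42e-06), with 1.22 in set 2 and 1.501 in set 3. Against scr the log2 difference was −0.996 in SATS (adjusted p = 0.0013) and −2.36 in SP (adjusted p = 1.84e-08). The 3p libraries (392 and 365) and the 5p libraries (441 and 401) lay close to SP, and the luciferase library (2199.8) lay close to scr. The gene lies on chromosome 9 at 100597798 to 100959375 of GRCm38 (mm10), on the plus strand. The annotated *Stag1* transcript that starts farthest upstream, Stag1-205, begins 45815 bp before the start of Stag1-201 with a first exon of 312 bp at 100597798 to 100598109. Of 9 genes tested within 1 Mb of *Stag1*, limma with the block called 0, as did edgeR and DESeq2, and 4 had an unadjusted p under 0.05. Their median log2 difference was −0.016.

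Across all genes, 1554 of 16490 were called between SATS and SP (9.42%), of which 980 were higher in SATS (5.94%) and 574 were lower (3.48%). All of them had the same sign in both sets. Most differences were small, with a median log2 difference of 0.48 among the genes called higher and −0.40 among those called lower. A fold of at least 2 was reached by 38 of the genes called higher and 21 of those called lower. In 698 of the 980 and 428 of the 574 the SATS and SP libraries did not overlap, against 14.2% of all genes with both SATS libraries above both SP libraries and 16.0% with both below. The call count rests on the pairing of the sets: without the replicate block 2 genes were called (0.0121%), *Stag1* and *Yes1*, and 1123 had an unadjusted p under 0.05, against 4093 with the block. It also rests on single libraries, with 101 genes called without the SATS library of set 3, 131 without the SP library of set 2 and 360 without the SP library of set 3. In these 3 fits the lone SATS or SP library is assumed to vary like the other groups. The same fit called 436 genes for SATS against scr (2.64%), 313 higher (1.9%) and 123 lower (0.746%), and 123 for SP against scr (0.746%), 38 higher (0.23%) and 85 lower (0.515%), and these comparisons share the scr libraries. Without the block limma called 0 genes for SATS against scr and 1 for SP against scr (0.00606%).

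**Figure D1:**
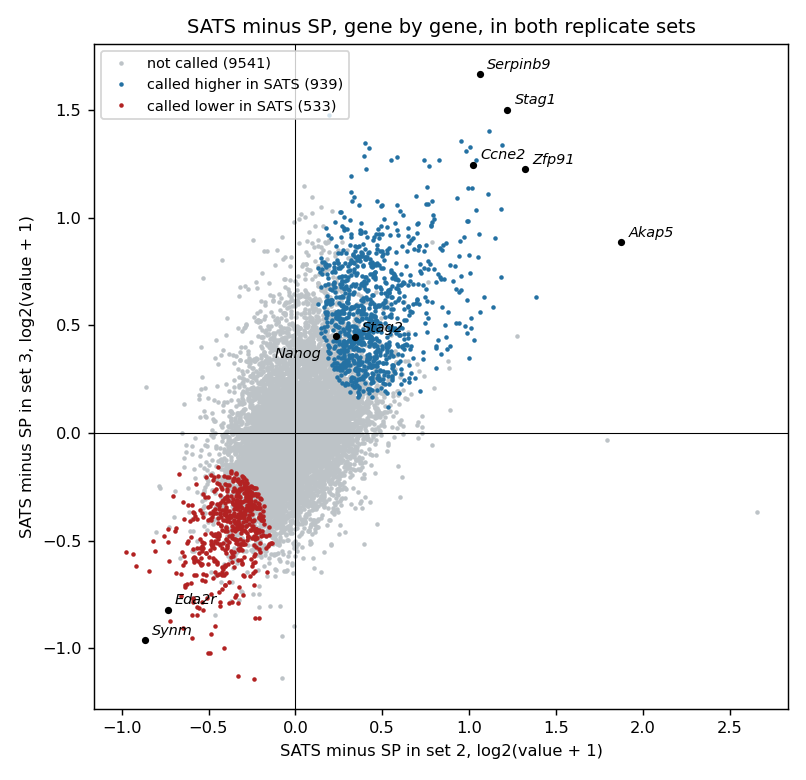
SATS minus SP, as log2(value + 1), in set 2 (x axis) and in set 3 (y axis), with 1 point for each of 11013 genes of mean value 50 or more over the 4 libraries. The 939 genes called higher in SATS (blue) and the 533 called lower (red) lie in the quadrants where both sets have the same sign, with *Stag1* at 1.22 and 1.501 and *Synm* at −0.87 and −0.96.

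The 12 largest rises among genes of mean value 50 or more held, besides *Stag1*, 5 genes called lower than scr in SP and not called against scr in SATS. *Akap5*, which anchors protein kinase A, was 61.8 and 41.2 in SP, 229.6 and 76.9 in SATS and 190.4 and 76.6 in scr, a log2 difference of 1.38 ± 0.19 (adjusted p = 0.00159). *Tmem64*, a transmembrane protein, was 589 and 299 in SP, 1344 and 756 in SATS and 1408 and 931 in scr (1.26 ± 0.091, adjusted p = 6.42e-06). *Pbrm1*, a subunit of the PBAF chromatin remodeller, was 1399 and 1621 in SP, 3180.3 and 3332 in SATS and 2814 and 3266 in scr (1.11 ± 0.08, adjusted p = 6.42e-06). In each of these 3 genes the SATS libraries lay above the SP libraries without overlap. *Shtn1*, which acts in axon outgrowth, was 43.1 and 25.4 in SP and 84.3 and 66.4 in SATS (1.15 ± 0.15, adjusted p = 0.00131). *Zfp91*, a zinc finger protein with ubiquitin ligase activity, was 389.8 and 481 in SP, 977 and 1126 in SATS and 779.7 and 855 in scr (1.27 ± 0.10, adjusted p = 1.07e-05). For SP against scr, all 5 were called lower, at −1.24 for *Akap5*, −1.45 for *Tmem64*, −1.01 for *Pbrm1*, −1.44 for *Shtn1* and −0.91 for *Zfp91*, and none of the 5 was called for SATS against scr, where they stood at −0.29 to 0.36. The 3p libraries also lay below scr of their set for *Tmem64* (802 and 461), *Pbrm1* (2091 and 2526), *Shtn1* (65.2 and 48.0) and *Zfp91* (547 and 705). For *Akap5* (155 and 84.1) they did so in set 2 only. In 5p *Zfp91* (566 and 539) was below scr too, while *Pbrm1* (3018 and 3042) lay near it. By the paper's methods the siRNAs of the 3p pool carry catalogue endings also listed for the SP pool.

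Other large rises had SATS libraries above scr. *Ccne2*, cyclin E2 of the G1 to S transition, was 259 and 463 in SP, 528 and 1099.9 in SATS and 322 and 400.2 in scr (1.13 ± 0.14, adjusted p = 0.000797). It was called higher for SATS against scr (1.08, adjusted p = 0.00795) and stood at −0.051 for SP against scr (adjusted p = 0.925). *Serpinb9*, an inhibitor of granzyme B, was 128 and 50.7 in SP, 268 and 163 in SATS and 191 and 72.6 in scr (1.37 ± 0.17, adjusted p = 0.000652). The Src family kinase gene *Yes1* lay on both sides of scr. It was 826 and 748 in SP, 1660.3 and 1882 in SATS and 1351 and 1274 in scr (1.17 ± 0.086, adjusted p = 6.77e-06). It was called in both comparisons with scr, at 0.43 in SATS and −0.74 in SP. The same held for *Tceal8*, a member of the TCEA-like family, at 0.57 and −0.69, and for *Nol7*, which encodes a nucleolar protein, at 0.46 and −0.68. *Tceal8* differed by 1.26 ± 0.085 between SATS and SP and *Nol7* by 1.15 ± 0.11 (adjusted p = 6.42e-06 and 0.000118). The zinc finger gene *Zfp947* was low, at 27.3 and 45.6 in SP and 57.1 and 111 in SATS (1.15 ± 0.23, adjusted p = 0.00932). In the luciferase library, the enzymatically derived control, *Ccne2* was 466, *Serpinb9* 67.6, *Yes1* 1246 and *Zfp91* 906, each below the SATS library of the same set.

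**Figure D2:**
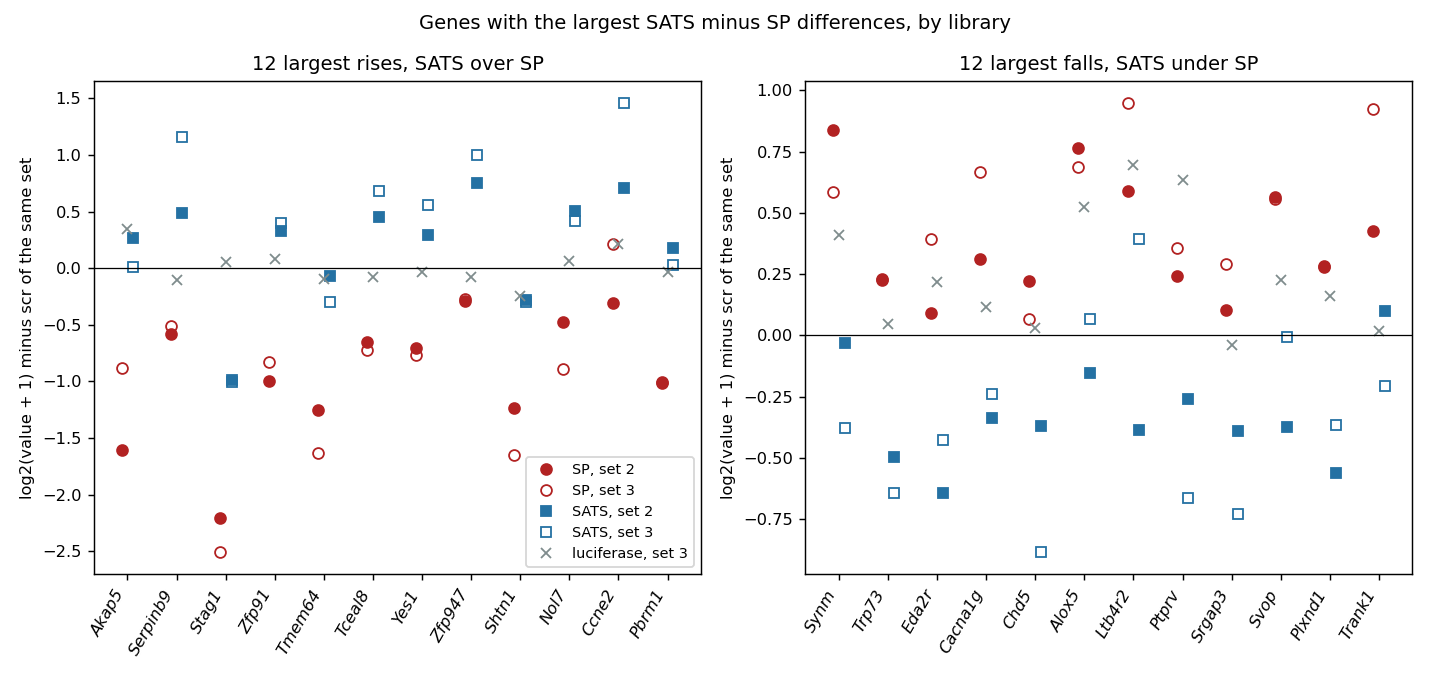
Normalised values, as log2(value + 1) minus scr of the same set, of the 12 genes with the largest rise (left) and the 12 with the largest fall (right) in SATS against SP, with SP in red circles, SATS in blue squares, set 2 filled, set 3 open and the luciferase library of set 3 as a grey cross. SP lies below 0 for 11 of the 12 rises in both sets, and *Stag1* is the gene for which SATS lies near −1.

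The falls were smaller. *Synm*, which encodes the intermediate filament protein synemin, was 260.0 and 341 in SP, 142 and 174 in SATS and 145 and 227 in scr (−0.92 ± 0.13, adjusted p = 0.00215). It was called higher for SP against scr (0.71, adjusted p = 0.0247). It was also above scr of its set in the 3p libraries (231 and 344) and in the luciferase library (302). *Trp73*, a member of the p53 family, was 138 and 223 in SP, 83.2 and 121 in SATS and 118 and 190.0 in scr (−0.80 ± 0.12, adjusted p = 0.0025). *Eda2r*, the ectodysplasin A2 receptor and a p53 target, was 1605 and 1962 in SP, 963 and 1111 in SATS and 1506 and 1495 in scr (−0.78 ± 0.089, adjusted p = 0.000411). In *Trp73* and *Eda2r* both SATS libraries lay below scr of their set, at −0.57 and −0.54 (adjusted p = 0.0283 and 0.0159). Among these falls, which were chosen by their size, stood the 5-lipoxygenase gene *Alox5* (−0.77 ± 0.14) and the leukotriene B4 receptor gene *Ltb4r2* (−0.77 ± 0.19). Their SATS values (55.0 and 76.9 for *Alox5*, 36.0 and 48.7 for *Ltb4r2*) lay near scr (61.2 and 73.4, 47.4 and 36.9), and the luciferase library lay above scr of its set in both (106 and 60.3). The others were the T-type calcium channel gene *Cacna1g* (−0.78), the chromatin remodeller gene *Chd5* (−0.77), the receptor phosphatase gene *Ptprv* (−0.76), the GTPase activating protein gene *Srgap3* (−0.76), the synaptic vesicle protein gene *Svop* (−0.75), the semaphorin receptor gene *Plxnd1* (−0.74) and *Trank1* (−0.73), with adjusted p from 0.00337 to 0.0307. The SATS and SP libraries overlapped in *Trank1* and in none of the other 11, and *Trank1* was the one of the 12 not called with the correction for GC content and length (−0.52, adjusted p = 0.0847). Of these 12 falls, 6 were called without the SATS library of set 3, 5 without the SP library of set 2 and 7 without the SP library of set 3, where 11, 11 and 12 of the 12 largest rises were called.

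Of the 1554 genes, 63 were called in all 15 fits with the replicate block, including the fits without 1 of the 4 libraries and the fit corrected for GC content and length. They were 51 higher and 12 lower in SATS, and they were picked after their values were seen. Of the 12 largest rises, 11 were among them, all but *Zfp947*, and of the 12 largest falls *Synm* and *Eda2r*. Further genes higher in SATS in all 15 fits were *Kif5b*, the kinesin heavy chain gene (2419 and 2575 in SP, 4906 and 5665 in SATS, 4455 and 5396 in scr), and *Nras*, a small GTPase (1736 and 1812 in SP, 2616 and 2879 in SATS, 2649.9 and 2843 in scr). For *Kif5b* the log2 difference from scr was 0.10 in SATS and −0.97 in SP, and for *Nras* it was −0.00041 and −0.63. The 3p libraries also lay below scr, at 3062 and 3331 for *Kif5b* and 2166 and 2187 for *Nras*. Other genes higher in SATS in all 15 fits had log2 differences of 0.88 for *Acta2* (smooth muscle actin), 0.86 for *Actc1* (cardiac actin), 1.05 for *Tmsb4x* (thymosin beta 4), 0.90 for *Anxa1* (annexin A1) and 0.77 for *Lgals1* (galectin 1). Genes lower in SATS in all 15 fits included *Trim71*, a pluripotency RNA-binding protein and let-7 target (9521 and 8564 in SP, 6585 and 5443 in SATS, 8248 and 8478 in scr), *Podxl*, the podocalyxin gene (−0.58) and *Lpin1*, a phosphatidate phosphatase gene (−0.58).

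Base composition and transcript length moved with the comparison. Among genes of mean value 50 or more, those called higher in SATS had a median transcript GC content of 42.7% and a median length of 3021.5 nt, those called lower 54.3% and 5020 nt, and all 10647 such genes 49.7% and 3531 nt. With these genes split into 10 bins of equal size by GC content, 32.9% were called higher and 0.563% lower in the lowest bin, and 1.88% and 8.64% in the highest. Across genes, which are not independent replicates, SATS minus SP correlated with GC content at r = −0.57 in set 2 and −0.18 in set 3, and with log2 length at −0.062 and −0.44. So the GC trend was stronger in set 2 and the length trend in set 3. The untreated library of set 2 against scr also correlated with GC content, at 0.44, beside 0.37 for SP and −0.36 for SATS of that set. With each library corrected for both, 472 of 15878 genes were called higher (2.97%) and 344 lower (2.17%), of which 368 and 230 were also called without the correction. The part of GC content and length in the differences was not tested, and calls lost with this correction are given beside the gene lists.

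**Figure D3:**
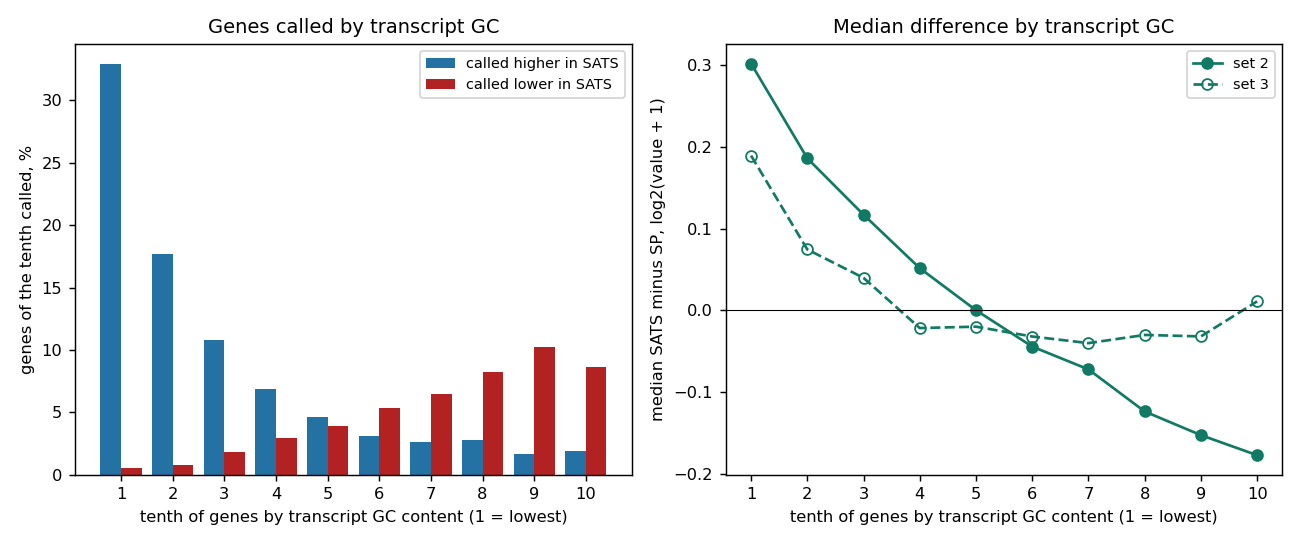
Genes of mean value 50 or more in 10 bins of equal size by the GC content of their longest transcript (x axis, lowest to highest): the share called higher (blue) and lower (red) in SATS against SP in percent (left), and the median log2 difference in set 2 (filled) and set 3 (open) (right). The share called higher falls from 32.9% in the lowest bin to 1.88% in the highest, and the median falls from 0.30 to −0.18 in set 2.

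Among 17 genes of cohesin and its regulators, 4 were called higher in SATS than in SP (23.5%, beside 5.94% of all genes). *Stag1*, the target of both siRNAs, was 1 of these 4. None was lower at an adjusted p under 0.05 (beside 3.48% of all genes), and the list's median difference was 0.039, against −0.0036 over all genes. *Stag2*, the paralog of *Stag1*, was 1895 and 3287 in SP, 2406 and 4474 in SATS and 1811 and 2895 in scr. Set 3 was higher than set 2 in each group, so the SATS and SP libraries overlapped, and within each set SATS was the highest of the 3 (0.39 ± 0.084 against SP, adjusted p = 0.0136, and 0.52 against scr, adjusted p = 0.0154). *Stag2* was not called in SP against scr (0.12, adjusted p = 0.599). The cohesin acetyltransferase genes *Esco2* (0.45 ± 0.082, adjusted p = 0.0063) and *Esco1* (0.37 ± 0.10, adjusted p = 0.0376) were also higher in SATS. With the correction for GC content and length 1 of the 15 members with annotation was called, *Stag1*, and *Stag2* stood at 0.19 (adjusted p = 0.166). The genes of the ring itself were not called. *Stag2* was not called without the SATS library of set 3 (0.29, adjusted p = 0.21), without the SP library of set 2 (0.35, adjusted p = 0.129) or without the SP library of set 3 (0.44, adjusted p = 0.0617).

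All 10 core and 28 naive pluripotency genes listed were measured in these cells. Of the naive genes, 2 were higher in SATS than in SP (7.14%, beside 5.94% of all genes) and 1 was lower (3.57%, beside 3.48% of all genes), shares near those of all genes, with a median difference of 0.043. *Nanog* was 3023 and 2011 in SP, 3552 and 2748 in SATS and 4069 and 2399.9 in scr, higher in SATS than in SP by 0.34 ± 0.10 (adjusted p = 0.0394). *Nanog* was not called against scr in SATS (−0.00034, adjusted p = 0.999) or in SP (−0.34, adjusted p = 0.138). Its difference between SATS and SP was not called without the SATS library of set 3 (0.23, adjusted p = 0.391), without the SP library of set 2 (0.36, adjusted p = 0.152) or without the SP library of set 3 (0.32, adjusted p = 0.205), and these 3 fits called 0 of the 28 naive genes. *Dppa3*, a maternal factor of naive cells, was 305 and 167 in SP and 403 and 295 in SATS (0.61 ± 0.13, adjusted p = 0.0145), and *Il6st*, the gp130 receptor of the LIF pathway, was lower (−0.33 ± 0.085, adjusted p = 0.0292). With the correction for GC content and length limma called 0 of the 28 naive genes, and without it edgeR and DESeq2 called 3 each, as limma did, of 7 with an unadjusted p under 0.05. *Tbx3*, *Esrrb* and *Klf4*, further regulators of the naive state, were not called between SATS and SP. *Tbx3* was 605 and 176 in SP, 595 and 179 in SATS and 868 and 252 in scr, with 0.00096 ± 0.11 between SATS and SP (adjusted p = 0.997). It was called lower than scr in both knockdowns, at −0.52 in SATS (adjusted p = 0.0297) and −0.52 in SP (adjusted p = 0.0477). *Esrrb* differed by −0.038 ± 0.10 between SATS and SP (adjusted p = 0.855) and *Klf4* by −0.14 ± 0.12 (adjusted p = 0.553). The median of the naive list was −0.23 in SATS and −0.29 in SP against scr.

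Of the 10 core pluripotency genes 1 was lower in SATS (10%, beside 3.48% of all genes). That gene was *Lin28a*, an RNA-binding inhibitor of let-7 maturation, at 9374 and 10249.5 in SP and 8015 and 8042 in SATS (−0.29 ± 0.085, adjusted p = 0.0497). It was not called by edgeR with the block (adjusted p = 0.0583), with the correction for GC content and length (adjusted p = 0.0613) or without any 1 of the 4 libraries. Of 23 formative and primed genes, 1 was lower in SATS (4.35%, near the 3.48% of all genes), the SOX factor gene *Sox4*. Its values were 1247 and 1079 in SP, 798 and 725 in SATS and 890.4 and 839 in scr (−0.61 ± 0.087, adjusted p = 0.00209). The *Sox4* libraries did not overlap between SATS and SP, and SP was called above scr (0.42, adjusted p = 0.0411). The de novo methyltransferase gene *Dnmt3b* (−0.054 ± 0.086), the growth factor gene *Fgf5* (0.15 ± 0.13), *Pou3f1* (0.075 ± 0.12), which encodes the POU factor OCT6, and *Sox11* (0.31 ± 0.10) were not called, with adjusted p from 0.0695 to 0.76. *Sox11* was called higher with the correction for GC content and length (0.42, adjusted p = 0.00271). In the Nodal pathway, 3 of 11 genes were lower in SATS (27.3%, beside 3.48% of all genes), the proprotein convertase genes *Pcsk6* (−0.44 ± 0.088) and *Furin* (−0.29 ± 0.083), which process Nodal, and the receptor gene *Acvr2b* (−0.33 ± 0.10), with adjusted p = 0.00932, 0.0418 and 0.0458. *Pcsk6* was 623 and 587 in SP and 477 and 413 in SATS, without overlap, and it was the member still called with the correction for GC content and length (−0.32, adjusted p = 0.0361), where *Furin* stood at −0.13 (adjusted p = 0.349) and *Acvr2b* at −0.27 (adjusted p = 0.0826). Of the Nodal pathway genes, 0 were called lower without the SATS library of set 3 or the SP library of set 2, and 1 was without the SATS library of set 2, without the SP library of set 3 or with the libraries rescaled by edgeR's TMM factors, while *Sox4* was called without the SATS library of set 3 and without either SP library. Among 16 genes of the 2-cell stage, 1 was called higher (6.25%, near the 5.94% of all genes), and the list's median was 0.09. This was the translation factor gene *Eif1a* (0.47 ± 0.10, adjusted p = 0.0127), which most cells use. *Eif1a* was not called after correction for GC content and length (0.21, adjusted p = 0.221), and the list's median was then −0.12, on the other side of 0.

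Markers of other cells that a serum culture could hold were counted too. Of 15 primitive endoderm genes and 14 mesoderm and primitive streak genes, limma with the block called 0 and 0, with medians of −0.20 and −0.058. By unadjusted p under 0.05 it was 2 and 1, and edgeR, DESeq2 and the fit with the GC and length correction also called 0. In the primitive endoderm list 2 of 15 genes had a positive difference, and its basement membrane gene *Col4a1* was 4446 and 1377 in SP and 3653 and 1138 in SATS (−0.28 ± 0.091, adjusted p = 0.0707). Of 13 fibroblast genes 4 were higher in SATS (30.8%, beside 5.94% of all genes) and 1 was lower (7.69%, beside 3.48%). The summed value of the list was 46064 and 18334 in SP, 55056 and 19247 in SATS and 48291 and 19676 in scr. The sum was higher in set 2 than in set 3 in all 3 groups, and its part in the differences was not tested. *Acta2* was 3622 and 603 in SP, 6951 and 1067 in SATS and 3956 and 649 in scr (0.88 ± 0.084, adjusted p = 9.58e-05). The collagen gene *Col1a1* (0.61), the actin-binding protein gene *Tagln* (0.40) and the vimentin gene *Vim* (0.34) were higher and the fibrillin gene *Fbn1* (−0.47) lower, with adjusted p from 0.0165 to 0.0316. The untreated and luciferase libraries also lay apart from scr in the first 2 of these genes. *Acta2* was 5701 in the untreated library of set 2 and 392 in the luciferase library of set 3, and *Col1a1* was 4627 and 242 beside 2223 and 367 in scr. The list's median for luciferase against scr was −0.38, and the part of this spread in the SATS and SP difference was not tested. *Acta2*, *Col1a1* and *Tagln* were also called with the correction for GC content and length, while *Vim* (adjusted p = 0.0588) and *Fbn1* (adjusted p = 0.119) were not. Of 9 trophoblast genes 2 were higher (22.2%), the keratin genes *Krt8* and *Krt18*, which pair in simple epithelia. *Krt8* was 13082 and 3898 in SP, 18476 and 6996 in SATS and 13991 and 4369 in scr (0.67 ± 0.13, adjusted p = 0.00729), and *Krt18* differed by 0.60 ± 0.12 (adjusted p = 0.00932), and both were called with that correction too. For *Acta2*, *Krt8* and *Krt18* the spread between sets was larger than the difference between SATS and SP, which had the same sign in both sets. The summed value of the trophoblast list was 23372 and 7298 in SP, 32371 and 12316 in SATS and 26741 and 8336 in scr. No member of these 4 lists in the table was at 0 in all 4 libraries, and 3 did not pass the filter on low values. Without the SATS library of set 3, 1 fibroblast gene and 0 trophoblast genes were called higher, and the counts were the same without either SP library. Without the SATS library of set 2 they were 2 and 2.

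Genes of short transcripts that all dividing cells use were higher in SATS in larger numbers. Of 86 cytosolic ribosomal protein genes 23 were higher (26.7%, beside 5.94% of all genes) and none was lower, with a median of 0.20. *Rpl39* was 1631 and 1903 in SP, 2384 and 3605 in SATS and 1751 and 1748 in scr (0.73 ± 0.15, adjusted p = 0.00946). The SATS library of set 3 was the highest of these in *Rpl39*, and the same was true of *Rps25* (5032 and 6909 in SP, 7129 and 10154 in SATS). Of 77 mitochondrial ribosomal protein genes 18 were higher (23.4%) and none lower (median 0.21), with 0.63 for *Mrpl42* and 0.52 for *Mrps22*. Of 77 nuclear genes of the respiratory chain 16 were higher (20.8%) and 1 was lower (1.30%, beside 3.48% of all genes), the testis subunit gene *Cox6b2* (−0.47 ± 0.11, adjusted p = 0.0166). The median of the list was 0.21, with 0.66 for the cytochrome oxidase subunit gene *Cox7b* and 0.61 for the complex I subunit gene *Ndufs4*. Of 31 proteasome genes 9 were higher (29.0%) and none lower (median 0.21), with 0.73 for *Psmc6*, an ATPase of the 19S particle, and 0.52 for *Psmb1*, a subunit of the 20S core. The adjusted p of these 7 genes lay between 0.00461 and 0.0219.

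Of 56 replication-dependent histone genes, whose mRNAs are made in S phase and mostly lack a poly(A) tail, 15 were higher in SATS (26.8%) and none was lower, and all 56 had a positive difference (median 0.30). *Hist1h2ab* was 259.6 and 305 in SP, 503 and 485 in SATS and 294 and 339.9 in scr (0.81 ± 0.12, adjusted p = 0.00263), without overlap of SATS and SP. *Hist1h3b* (0.72), *Hist1h2bb* (0.65) and *Hist2h3b* (1.04) were also called. The histone and ribosomal protein genes have close copies, so the reads of single members are uncertain. These lists differed mostly in set 3. The median was 0.084 in set 2 and 0.51 in set 3 for histones, 0.10 and 0.36 for cytosolic and 0.081 and 0.34 for mitochondrial ribosomal proteins, 0.071 and 0.35 for the respiratory chain and 0.10 and 0.30 for the proteasome. With the correction for GC content and length, 3 of 56 histone genes were called higher (median 0.10), 6 of 86 cytosolic ribosomal protein genes (0.063), 6 of 77 mitochondrial ones (0.081), 3 of 76 respiratory chain genes (0.038) and 3 of 31 proteasome genes (0.066). Over all genes 2.97% were called higher with the correction, so the share stayed above that of all genes in each list. Of the members named above, *Cox7b*, *Ndufs4*, *Psmc6* and *Hist2h3b* were then not called, with adjusted p from 0.0565 to 0.149. Their median transcript lengths were 1026 to 1849 nt, and 536 nt for histones, beside 3531 nt over all genes of mean value 50 or more. Without the SATS library of set 3 the calls were 1 for histones and 0 for each of the other 4 lists, and without the SP library of set 2 they were 1 for the proteasome and 0 for the others. Without the SP library of set 3 they were 3 for histones, 2 for cytosolic and 1 for mitochondrial ribosomal proteins, 0 for the respiratory chain and 1 for the proteasome, and without the SATS library of set 2 they were 23, 35, 25, 25 and 11.

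**Figure D4:**
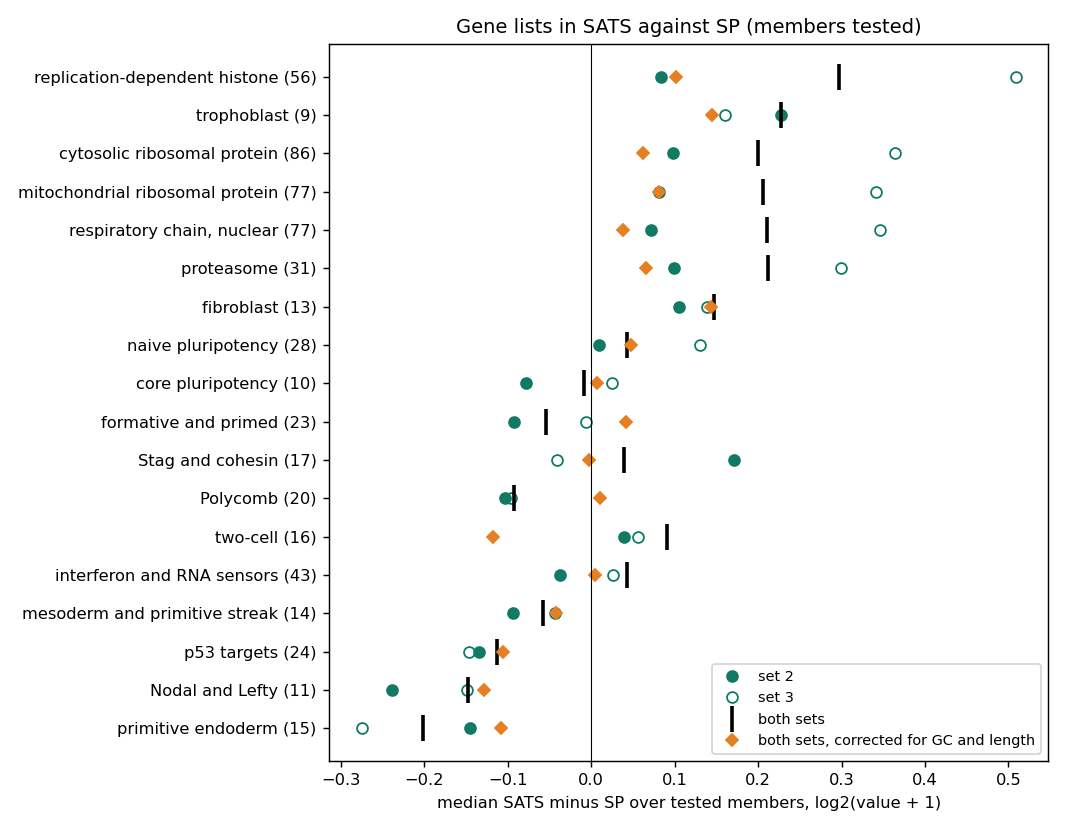
Median log2 difference, SATS minus SP, over the tested members of 18 gene lists (x axis), in set 2 (filled circles), in set 3 (open circles), over both sets (black bars) and over both sets after correction for GC content and length (orange diamonds), with the number of members tested in brackets. The histone list stands at 0.30, with 0.51 in set 3 and 0.10 after the correction, and the primitive endoderm list at −0.20.

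Chromatin genes were called in both directions. Of 20 Polycomb genes 4 were higher in SATS (20.0%, beside 5.94% of all genes), among them the core subunits *Suz12* and *Eed* of Polycomb repressive complex 2. A further 1 was lower (5.00%, beside 3.48% of all genes), and the median of the list was −0.093. Without the SATS library of set 3 or the SP library of set 2, 1 Polycomb gene was called higher, and without the SP library of set 3 it was 3. *Suz12* was 2808 and 3232 in SP, 3877 and 4119.7 in SATS and 3265 and 3647 in scr (0.41 ± 0.07, adjusted p = 0.00478), and *Eed* differed by 0.37 ± 0.083 (adjusted p = 0.0156). *Mtf2*, an accessory subunit, differed by 0.58 ± 0.091 (adjusted p = 0.00327), and *Rnf2*, the ubiquitin ligase of repressive complex 1, by 0.54 ± 0.087 (adjusted p = 0.0038). In these 4 genes the SATS libraries lay above the SP libraries without overlap, and none of them was called against scr in either knockdown. With the correction for GC content and length *Suz12* (0.27), *Eed* (0.29) and *Rnf2* (0.28) were called and *Mtf2* was not (0.32, adjusted p = 0.0765). The chromobox gene *Cbx2* was lower (−0.29 ± 0.084, adjusted p = 0.0442), and was not called with that correction (−0.18, adjusted p = 0.135). Of 22 genes of heterochromatin and DNA methylation, *Cbx3* (HP1 gamma) was higher (0.63 ± 0.14) and the dioxygenase gene *Tet3* (−0.50 ± 0.094) and the histone H3K9 methyltransferase gene *Ehmt1* (−0.44 ± 0.073) were lower, with adjusted p = 0.0156, 0.00776 and 0.00443. These were 4.55% and 9.09% of that list, beside 5.94% and 3.48% of all genes. With the correction *Tet3* (−0.26) and *Ehmt1* (−0.31) were called and *Cbx3* was not (0.33, adjusted p = 0.197).

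Of 15 genes of RNA interference and microRNA function, 3 were lower in SATS (20.0%, beside 3.48% of all genes) and none was higher. *Ago1*, an Argonaute, was 1812 and 2802 in SP, 1199.7 and 1557 in SATS and 1506 and 1969 in scr (−0.72 ± 0.11, adjusted p = 0.00263). *Ago2*, the Argonaute that cleaves its targets, was 4982 and 5349 in SP, 4207 and 3521 in SATS and 5047 and 4752 in scr (−0.42 ± 0.10, adjusted p = 0.0187), and *Lin28a* was the other member called. In *Ago1* the scr values lay between SATS and SP, and neither gene was called against scr. Without the SATS library of set 3, 0 genes of this list were called lower, and without either SP library it was 1. The luciferase library had 2596 for *Ago1* and 4359 for *Ago2*. With the correction for GC content and length *Ago1* was called lower, *Ago2* was not called (−0.20, adjusted p = 0.062) and *Dicer1*, the nuclease that makes microRNAs, was called higher (0.42, adjusted p = 0.00178, beside 0.27 without the correction). Of 43 genes of the interferon response and RNA sensing 2 were higher and 2 lower (4.65% each, beside 5.94% and 3.48% of all genes), with a median of 0.043. *B2m*, the MHC class I light chain, was 337 and 202 in SP and 568 and 298 in SATS (0.66 ± 0.095, adjusted p = 0.0022) and *Ifitm1* differed by 0.44, while the peptide transporter gene *Tap1* (−0.41) and the ubiquitin ligase gene *Trim25* (−0.34) were lower. None of these 4 was called with the correction for GC content and length. Of 24 p53 targets 3 were lower in SATS than in SP (*Eda2r*, the antiproliferative gene *Btg2* at −0.47 ± 0.11 and *Ei24* at −0.35 ± 0.078) and 1 was higher (the cyclin G1 gene *Ccng1*, 0.45 ± 0.083), with adjusted p from 0.000411 to 0.021. *Btg2* was 1768 and 1612 in SP, 1284 and 1163 in SATS and 1228 and 826 in scr, and SP was called against scr (0.74, adjusted p = 0.00676). The luciferase library, at 1179, was also above scr of its set, as were the 3p libraries (1640.3 and 1578). The share called lower was 12.5%, beside 3.48% of all genes, and the share called higher was 4.17%, beside 5.94%. After correction for GC content and length 6 p53 targets were called lower and 1 higher, beside 2.17% and 2.97% of all genes. In fits without that correction, leaving out the SATS library of set 3 or either SP library left 1 p53 target called lower.

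Of 32 genes of DNA replication and S phase 2 were higher in SATS (6.25%, beside 5.94% of all genes), *Ccne2* and the clamp loader gene *Rfc4* (0.55 ± 0.12, adjusted p = 0.016), and of 28 genes of mitosis 3 were higher (10.7%), the condensin genes *Smc2* (0.35) and *Ncapg* (0.29) and the kinase gene *Cdk1* (0.29), with adjusted p from 0.0113 to 0.0478. *Ccne2* and *Cdk1* were also called with the correction for GC content and length, while *Rfc4* (0.28, adjusted p = 0.114), *Smc2* (0.18, adjusted p = 0.125) and *Ncapg* (−0.08, adjusted p = 0.568) were not. The medians of these lists were 0.043 and −0.017. Of 34 genes of the nucleolus and RNA polymerase I 2 were higher (5.88%, near the 5.94% of all genes). They were *Npm1*, which encodes nucleophosmin (22552 and 27065 in SP, 28425 and 43746 in SATS, 0.51 ± 0.12, adjusted p = 0.0206), and *Nop58*, a core protein of box C/D snoRNPs (0.37 ± 0.10, adjusted p = 0.0375). Neither was called with the correction for GC content and length. Among 11 structured noncoding RNAs 1 was called higher (9.09%, beside 5.94% of all genes), the telomerase RNA gene *Terc* (309 and 247 in SP, 387 and 566 in SATS, 0.76 ± 0.19, adjusted p = 0.0273). *Terc* differed by 0.32 in set 2 and 1.19 in set 3, and it was not called by DESeq2 with the block or without the SATS library of set 3 or either SP library. In metabolism, 2 of 32 genes of glycolysis and hypoxia were higher (the glucose transporter gene *Slc2a1* at 0.44 and *Bnip3l* at 0.30) and 3 were lower (the oxidoreductase gene *Ero1l* at −0.54, the hexokinase gene *Hk1* at −0.34 and the kinase gene *Pdk1* at −0.29). These shares were 6.25% and 9.4%, beside 5.94% and 3.48% of all genes. Of 28 genes of cholesterol synthesis and uptake *Scd2*, a stearoyl-CoA desaturase (0.42), and *Idi1*, isopentenyl diphosphate isomerase (0.38), were higher and *Insig1*, which holds back SREBP processing (−0.41), was lower. These were 7.14% and 3.57% of that list, near the shares of all genes. One gene was called in each of 4 more lists: *Ddit4* lower among 27 genes of the integrated stress response (−0.34), *Snhg17* lower among 15 snoRNA hosts (−0.33), the co-receptor gene *Lrp5* lower among 26 Wnt genes (−0.28) and *Pcdhgb5* lower among 39 clustered protocadherins (−0.76). The shares called lower in these 4 lists were 3.70%, 6.67%, 3.85% and 2.56%, beside 3.48% of all genes. Of 25 immediate early genes *Ier5* was higher (0.39) and *Btg2* lower (4% each). The adjusted p of the 13 genes other than *Btg2* named in these metabolic and other lists lay between 0.00833 and 0.0451. Of these 13, *Bnip3l*, *Hk1*, *Pdk1*, *Idi1*, *Snhg17*, *Lrp5* and *Pcdhgb5* were not called with the correction for GC content and length (adjusted p from 0.0598 to 0.634), where *Lrp5* stood at −0.059, and DESeq2 did not call *Pcdhgb5*. Of 20 matrix genes, 13 genes of BMP signalling and 28 Hox genes limma with the block called 0, as did edgeR, with 10, 1 and 1 at an unadjusted p under 0.05. DESeq2 called 2 of the matrix genes, and the fit with the GC and length correction called 2 of them higher (beside 2.97% of all genes in that fit).

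The 3′ UTRs were searched for short stretches held by genes higher in SATS. The sense strand of the longest annotated 3′ UTR was searched for every heptamer in 10388 genes of mean value 50 or more with a 3′ UTR of at least 50 nt, and 16077 heptamers held by at least 50 genes were ranked by the mean SATS minus SP difference of their holders after adjustment for the length and GC content of UTR and transcript. The ranking used the values of this comparison, so what follows is a description with no test. The first 4 heptamers gave 3 octamers. The first and second overlap to ACGGATCA, and the others with a following A give ATGATTCA and GTATAGAA. Of these 4 heptamers 3 occur in the *Stag1* transcript Stag1-201, beside 27.3% of all ranked heptamers. A guide can pair with a site through its bases 2 to 8, and such a site is often followed by an A. The A that ends ATGATTCA and GTATAGAA was added here and did not come from the ranking. The sequences of the SP and 3p siRNAs were not used, so a match of these octamers to a seed was not tested.

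The places of these letters in Stag1-201 (GENCODE M21, GRCm38, plus strand) are shown because *Stag1* is the gene that was targeted. Each line gives 21 bases, 5′ to 3′, with the octamer or the 7 of its letters that match in capitals.
chr9:100908701-100908707, exon 22, coding sequence: tgaaaattactgACGGATCtc
chr9:100951648-100951655, exon 30, coding sequence: aggactgacacgATGATTCAg
chr9:100956442-100956449, exon 32, coding sequence: ctatcatagaagATGATTCAg
chr9:100947157-100947164, exon 29, coding sequence: tccactcatctcGTATAGAAa
chr9:100957302-100957308, exon 33, 3′ UTR: ccgttcattttcTATAGAAta

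Of the 12 largest rises, 11 held at least 1 of the 6 heptamers in the 3′ UTR, all but *Zfp947*. This stands beside 27.7% of all genes searched and 4 of the 12 largest falls. *Stag1*, the target, is among the 11. The heptamers and the rises were both chosen by the SATS minus SP difference, so an excess was built in and the count is no test. A longer 3′ UTR holds more of any heptamer. The whole octamers in 3′ UTRs of the rises, shown for comparison with the stretches of *Stag1*, were these.
*Zfp91*, chr19:12768546-12768553, minus strand, exon 11: tcactgggagacACGGATCAt
*Nol7*, chr13:43401950-43401957, plus strand, exon 8: taaatcattgtaACGGATCAt
*Pbrm1*, chr14:31120410-31120417, plus strand, exon 31: ctttagaatataACGGATCAg
*Pbrm1*, chr14:31119661-31119668, plus strand, exon 31: tttgatcagtttATGATTCAg
*Pbrm1*, chr14:31120465-31120472, plus strand, exon 31: gagaacaaaagaGTATAGAAt
*Shtn1*, chr19:58973818-58973825, minus strand, exon 15: ctttttatgataATGATTCAg
*Yes1*, chr5:32685733-32685740, plus strand, exon 12: tgcttatattgaGTATAGAAt
*Serpinb9*, chr13:33016768-33016775, plus strand, exon 8: tactaaagtcaaGTATAGAAa
*Pbrm1* thus held all 3 octamers within 1 exon, and *Zfp91*, *Nol7* and *Pbrm1* held the first.

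The octamer ACGGATCA was in the 3′ UTR of 31 of the genes searched (0.298%), and 11 of these were called higher in SATS than in SP and none lower, a share of 35.5% beside 8.46% of all genes searched. Their median log2 difference was 0.20, from the same values that ranked the heptamers. Against scr their median was −0.14 and −0.21 in the SP libraries and 0.030 and 0.012 in the SATS libraries. It was −0.015 and 0.0056 in the 3p libraries, 0.072 and 0.015 in the 5p libraries, −0.036 in the luciferase library and −0.049 in the untreated library. The SP libraries of both sets lay lowest. The SP and SATS values ranked the heptamers, so this was favoured by the choice and is no test. After the correction for GC content and length 9 of the 31 were called higher (29.0%, beside 4.31% of all genes searched). The octamer ATGATTCA was in 280 genes (2.70%), of which 51 were called higher (18.2%) and 9 lower (3.21%). GTATAGAA was in 294 (2.83%), of which 53 were called higher (18.0%) and 16 lower (5.44%). Of all genes searched 4.90% were called lower. The medians of the 2 octamers were 0.098 and 0.11, and with the correction 28 (10.0%) and 38 (12.9%) of their holders were called higher. For these 2 octamers the medians against scr in set 2 were −0.11 and −0.12 in SP and −0.11 and −0.14 in 3p, and in set 3 they were −0.014 and −0.0092 in SP and −0.055 and −0.072 in 3p. The untreated library of set 2 also lay below scr for them, at −0.074 and −0.080, and their holders had a lower median GC content (44.8% and 45.0%) than all genes searched (49.7%). The 3 SP libraries of set 1 were not used by the ranking and are shallow (1 read is worth a value of 3.22 to 8.05). All 3 were set against the same scr library of set 1 (1 read worth 6.70), so their medians are not independent. Over 29 holders of ACGGATCA the medians were −0.11, −0.082 and 0.076. Over holders of ATGATTCA they were −0.083, −0.053 and 0.076, and over holders of GTATAGAA −0.072, −0.042 and 0.032, so the signs were not particular to the first octamer. The genes with none of the 6 heptamers had a median of −0.0073 between SATS and SP, and 6.74% of them were called higher.

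**Figure D5:**
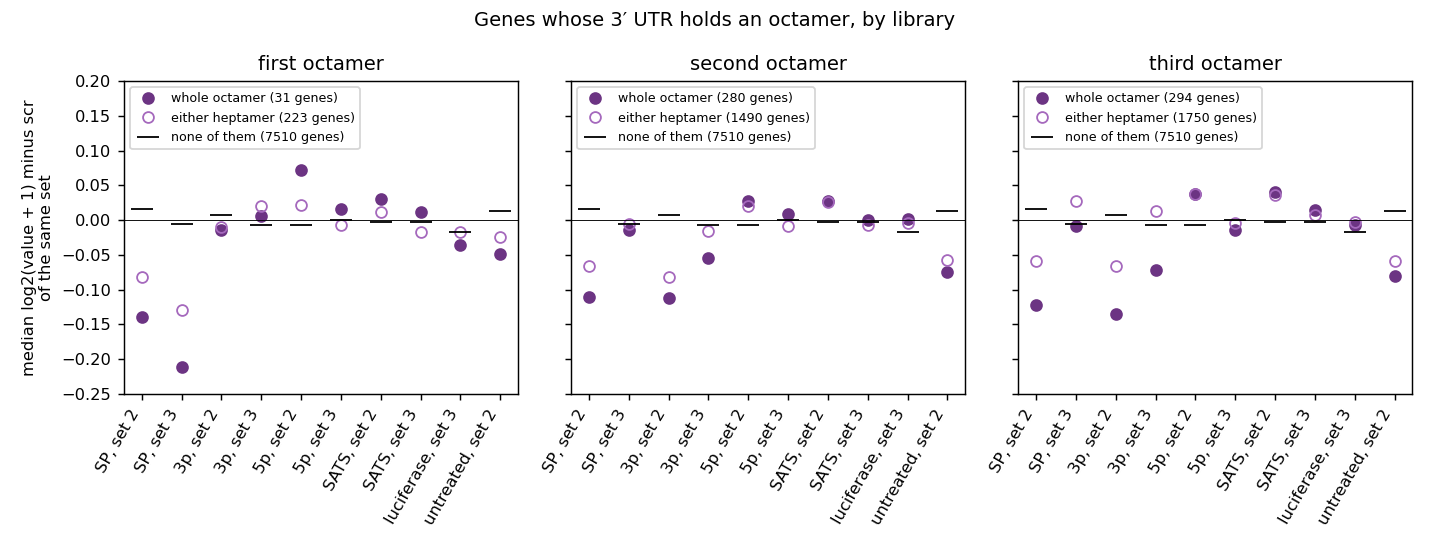
Median log2(value + 1) minus scr of the same set (y axis) in 10 libraries (x axis), for genes whose 3′ UTR holds 1 of the 3 octamers (filled), either of its heptamers (open) or none of the 6 heptamers (black bars). Holders of the first octamer lie at −0.14 and −0.21 in the SP libraries and at 0.030 and 0.012 in the SATS libraries, and holders of the other 2 octamers lie low in set 2 of SP and 3p and in the untreated library.

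An enzymatically derived mixture tiles its target. The sequence of the SATS mixture was not used here, and the first exon of Stag1-205 stood in for it in a search of other transcripts. That exon lies within the mm10 interval that the paper gives for the target of the mixture, and it ends at the same base. Of the genes tested, 13 held a run of at least 16 nt of the exon's sense strand, 11 of them at a mean value of 50 or more, and 3 were called lower in SATS than in SP (beside 3.48% of all genes) and 1 higher (beside 5.94% of all genes). The longest match was 19 nt, in the coding sequence of *Mast1*, a kinase gene that was not called (−0.13 ± 0.17, adjusted p = 0.701). The longest match in a gene called between SATS and SP was 17 nt, in a 3′ UTR of *Csnk1g1*, a casein kinase 1 gene, at chr9:66039854-66039870 on the plus strand in exon 12 of Csnk1g1-209. The matching bases of both genes are shown for their lengths, in capitals throughout.
*Mast1*, chr8:84912031-84912049, minus strand, exon 26 of Mast1-201: AGCTGTGACTCCTGCAGGC
*Csnk1g1*, chr9:66039854-66039870, plus strand, exon 12 of Csnk1g1-209: CTGCTTCTCCACTGCTT
*Csnk1g1* was 1226 and 1309 in SP, 876 and 684 in SATS and 1249 and 1094 in scr, and both SATS libraries lay below the other 4. It was called lower against SP (−0.71 ± 0.11, adjusted p = 0.00361) and against scr (−0.59, adjusted p = 0.0219), and without the SATS library of set 3 it was not called against SP (−0.54, adjusted p = 0.0813). The other 2 called lower had matches of 16 nt, the phosphatase gene *Ptpn1* (−0.28 ± 0.081, adjusted p = 0.046) and, in a noncoding transcript, *Lrig3* (−0.34 ± 0.087, adjusted p = 0.0272), and *Erlin1*, also with 16 nt in a noncoding transcript, was higher (0.43 ± 0.11, adjusted p = 0.0241). The 13 genes were picked by the length of the match, and *Csnk1g1*, *Ptpn1*, *Lrig3* and *Erlin1* are named because they were called. Longer matches than that of *Csnk1g1*, of 18 nt, stood in a 3′ UTR of *H2afx* and in a noncoding transcript of *Acvrl1*. Neither was called (0.17 ± 0.098, adjusted p = 0.305, and 0.22 ± 0.33, adjusted p = 0.734). The median difference of the 13 was −0.13.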

How the data were processed

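Total RNA was sequenced after rRNA depletion. As deposited, each value is a signal per gene that the authors made by aligning reads to mm10 with hisat2, counting them with featureCounts and dividing by 1 DESeq2 size factor per library, and the submitters' processing notes name edgeR 3.16.5 and DESeq2 1.14.1. Whole reads were recovered from all values (100% within 0.0001). Set 1 (9023224 to 14040830 reads) was not used for tests.

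SATS minus SP was tested with limma 3.58.1 in R 4.3.3 on log2(value + 1), with a variance trend, over 10 libraries of sets 2 and 3 (scr, SP, 3p, 5p, SATS), with the replicate set as a block and Benjamini-Hochberg adjustment over the 16490 of 18659 genes whose values summed to 10 or more. Libraries of 1 set deviated together in all 10 pairs of groups (r of 0.809 to 0.934 over 11019 genes, 0.844 for SATS and SP), so the sets were treated as pairs. Alternatives changed the block, samples, pseudocount, filter, scaling, tool (edgeR 4.0.16 or DESeq2 1.42.0 on recovered reads), depth and fold, or left out 1 library. Corrections for GC content and length (loess per library, GENCODE M21) and fits without the block by edgeR were added after the data were seen. The fits were tested on simulated data.

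Named genes were *Stag1*, *Stag2*, 8 genes of the study, the 12 largest rises and falls of mean value 50 or more, and up to 6 called members of each gene list (the 3 of highest mean where under 2 were called). Others are said to be picked later. The comparison, members and lists were chosen with earlier results of these data known.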

Additional observations from a re-analysis of the deposited data

How the results depend on the processing

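*Stag1* was called higher in SATS under every alternative, without the replicate block too (adjusted p = 0.0427). The count of genes called, 980 higher and 574 lower (1554), depended on the pairing of the sets: without the replicate block it was 2 higher and 0 lower (2 in all) by limma and the same by edgeR. Leaving out 1 of the 4 libraries gave 101 to 1253 genes, 77 to 929 higher and 24 to 324 lower, lowest without the SATS library of set 3 and highest without that of set 2, where the lone library is assumed to vary like the other groups. The 4 libraries alone gave 336 lower, the correction for GC content and length 472 higher and 344 lower (816), and a fold of at least 1.5 as a further condition 314 and 98 (412). The causes were not tested beyond these constructions. Pseudocounts, filters, TMM, thinning, edgeR and DESeq2 with the block kept all 3 counts within 1.5 times.

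The replicate block also decided single genes. Of 115 genes named besides *Stag1*, 104 that were called with it were not called without it, and 2 or 3 were lost under edgeR or DESeq2 with the block. With the GC and length correction 38 were lost and 2 gained, not counting *Ncapg*, which lost its call and turned direction. Without the SATS library of set 3 or the SP library of set 2, 75 and 74 of them were lost. Directions turned for *Tbx3* with reads thinned (−0.046) and, with the GC and length correction, for *Esrrb* (0.074), *Dnmt3b* (0.044), *Mast1* (0.024) and *Ncapg* (−0.080), of which *Ncapg* alone was called without the correction. With 1 library left out, *Tbx3* ranged from −0.084 to 0.086, *Esrrb* from −0.11 to 0.038, *Dnmt3b* from −0.13 to 0.024, *Pou3f1* from −0.13 to 0.28 and *Mast1* from −0.29 to 0.027.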
